A study of Mus musculus with 6 samples.

Results

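The replication-dependent histone genes were taken as all probes whose target name on the array begins with Hist1h, Hist2h, Hist3h or Hist4h. These were 59 genes with 89 probes, of 30774 target names and 45281 probes in all. RNA was measured on 6 expression arrays, on which an oligonucleotide on beads reads each transcript. The cells were pre-B cells, an early stage on the way to antibody-secreting cells, sorted from C57BL/6 mouse embryos at E17.5. All carried the Eµ-Myc transgene, in which an immunoglobulin heavy chain enhancer drives Myc, an oncogene, in cells of the B lineage. The 3 Smchd1 null samples were in addition homozygous for a gene trap allele of Smchd1, a chromatin protein known for its part in X inactivation, and the 3 Smchd1 wildtype samples were not. The organ, the sorting gate and the embryo behind each array are not given in the labels, so each p-value reflects only how far these samples spread, which may be technical.

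Histones H2A, H2B, H3 and H4 form the core around which nucleosomal DNA is wrapped, and H1 is the linker histone that binds where DNA enters and leaves it. Each is encoded by many near-identical genes that lie together in clusters and are transcribed mainly in S phase, when replicated DNA has to be packaged. Their mRNAs usually end in a stem-loop bound by SLBP instead of a poly(A) tail, although in human cells some members, HIST1H1C among them, are also known in polyadenylated form. The cRNA kit named in the labels starts from an oligo(dT) primer. The level of a histone probe here is therefore that of transcripts which that primer could copy, and probe sequences were not used here, so signal shared between near-identical genes cannot be told apart.

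All 59 genes matched a RefSeq gene, under newer names such as H2bc8 for Hist1h2bg. Of these, 46 were Hist1 genes on chromosome 13, 9 were Hist2 genes on chromosome 3, 3 were Hist3 genes on chromosome 11, and Hist4h4 lies on chromosome 6. By class there were 6 genes for H1, 17 for H2A, 15 for H2B, 9 for H3 and 12 for H4. In RefSeq order the Hist1 genes fell into 3 runs of neighbours, with 11, 5 and 30 genes, where a gap of over 200000 bases separates the runs.

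Promoter sequences show how these genes are arranged and which elements the classes share. RefSeq windows (GRCm38.p6), from 250 bases before to 50 after a transcription start, were at hand for 53 genes in 54 windows. Several H2A and H2B genes lie head to head and share the stretch between their starts. Shown here are 3 such stretches, from the start of the gene read on the minus strand to the start of the gene read on the plus strand, all on the plus strand and 5′ to 3′. The first is shown because Hist1h2bg had the largest difference of any histone probe and its partner Hist1h2ae had almost none. The others are examples of pairs with both partners detected on all 6 arrays. Hist1h2ak with Hist1h2bn and Hist1h2ag with Hist1h2bj were also such pairs and are not shown. Capitals mark CCAAT (the box bound by NF-Y), TATAAA (the TATA box) and ATTTGCAT (the octamer that Oct1, the product of Pou2f1, binds), each on either strand.
Hist1h2ae and Hist1h2bg, chr13:23571221-23571399, plus strand: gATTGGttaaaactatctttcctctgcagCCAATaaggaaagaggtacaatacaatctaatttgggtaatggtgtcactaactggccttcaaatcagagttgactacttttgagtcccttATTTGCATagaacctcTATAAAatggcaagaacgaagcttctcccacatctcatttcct
Hist1h2ah and Hist1h2bk, chr13:22035644-22035820, plus strand: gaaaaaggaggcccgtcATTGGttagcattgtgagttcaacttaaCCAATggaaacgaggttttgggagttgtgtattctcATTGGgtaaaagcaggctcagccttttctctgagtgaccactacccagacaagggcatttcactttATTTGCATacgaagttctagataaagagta
Hist1h2bf and Hist1h2ad, chr13:23574208-23574380, plus strand: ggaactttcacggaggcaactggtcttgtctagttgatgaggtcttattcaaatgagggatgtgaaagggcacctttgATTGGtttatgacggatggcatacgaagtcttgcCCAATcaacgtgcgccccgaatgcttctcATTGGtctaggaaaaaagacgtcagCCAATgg
The stretch between Hist1h2ae and Hist1h2bg is 179 bases long and held 2 CCAAT boxes, 1 octamer and 1 TATA box on the side of Hist1h2bg. The 177 bases between Hist1h2ah and Hist1h2bk held 3 CCAAT boxes and 1 octamer. The 173 bases between Hist1h2bf and Hist1h2ad held 4 CCAAT boxes and neither of the other motifs. For linker and H4 genes, the 150 bases before the start of Hist1h1c and Hist1h4c are shown, with the capitals also marking AAACACA, the H1 box.
Hist1h1c, chr13:23738657-23738806, plus strand: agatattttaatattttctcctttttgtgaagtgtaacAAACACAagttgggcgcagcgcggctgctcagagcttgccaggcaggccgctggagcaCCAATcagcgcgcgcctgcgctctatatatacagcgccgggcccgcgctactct
Hist1h4c, chr13:23698459-23698608, minus strand: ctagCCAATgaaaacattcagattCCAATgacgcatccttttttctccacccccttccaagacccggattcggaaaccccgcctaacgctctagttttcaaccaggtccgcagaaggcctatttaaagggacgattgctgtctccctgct

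The letters CCAAT, on either strand, were in every window of an H1 gene (6 of 6), H2A gene (17 of 17), H2B gene (13 of 13) and H3 gene (7 of 7), and in 3 of 11 H4 windows, against 37.4% of 32851 RefSeq promoter windows of the same length. TATAAA was in 4 of 6 H1, 11 of 17 H2A, 7 of 13 H2B, 2 of 7 H3 and 7 of 11 H4 windows, against 13.6% of all. The octamer ATTTGCAT was in 7 of 17 H2A windows and 7 of 13 H2B windows, in 0 windows of the other classes and in 1.74% of all. AAACACA was in 5 of 6 H1 windows, 2 of 17 H2A windows, 2 of 13 H2B windows and 7.18% of all. Matches of different motifs overlapped in 0 of the 54 histone windows, and a stretch between head-to-head genes stands in the windows of both. The plot of motif shares sets the classes beside all promoters.

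**Figure D1:**
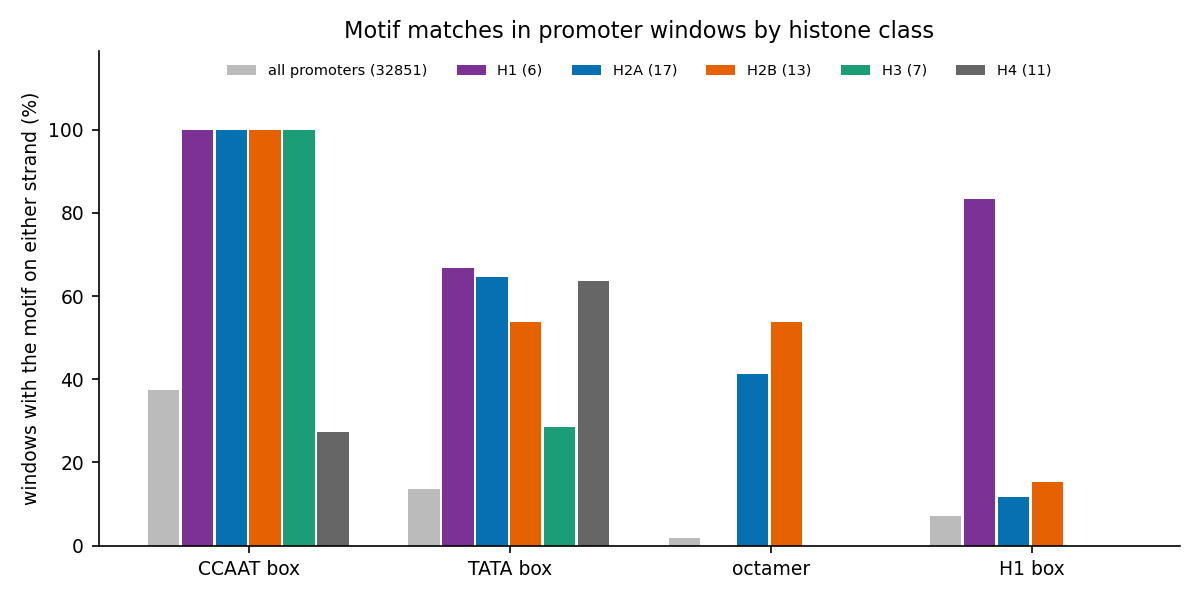
Share of RefSeq promoter windows (y axis, percent) that hold each motif on either strand, for all promoters (grey) and for each histone class (colours, number of windows in parentheses). The CCAAT box is in all windows of H1, H2A, H2B and H3 genes and in 27.3% of H4 windows, and the octamer is in H2A and H2B windows only among the histone classes.

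Most histone probes were above background. Of the 89 probes, 76 (85.4%) were detected on at least 1 array, where detection means a detection p under 0.05 against the negative control probes, compared with 47.2% of all probes. Of these, 71 were detected on all 6 arrays, and 72 to 74 were detected on each array. A probe was tested when it was detected on at least 3 of the 6 arrays, which 73 histone probes of 51 genes were. Of all probes 15878 were tested.

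The 8 genes with no tested probe were 3 linker genes (Hist1h1d, Hist1h1e and the testis form Hist1h1t), 2 further testis forms (Hist1h2aa and Hist1h2ba) and the whole Hist3 cluster (Hist3h2a, Hist3h2ba and Hist3h2bb). Hist1h2aa was detected on 1 null array, at a normalized log2 intensity of 5.29 in Smchd1 null replicate 3, and its range over the 6 arrays was 4.67 to 5.29. The other 7 were detected on 0 arrays. Among genes that had another tested probe, 1 probe of Hist1h3g (range 4.69 to 5.14) and 1 of Hist2h3c1 (4.70 to 5.15) were detected on 1 array each. Detection began at log2 intensities of 5.08 to 5.19 on the 6 arrays. Of the 13 probes detected on 0 arrays, 3 were for H1, 2 for H2A, 3 for H2B, 3 for H3 and 2 for H4.

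Some facts of the whole series bear on the histone values. Tests were made with limma, and a call is an adjusted p under 0.05 over all 15878 tested probes. Smchd1 itself fell by 4.73 on the log2 scale with its brightest probe (SE 0.16, limma adjusted p = 5.6e-05), detected on all 3 wildtype arrays and 0 null arrays. Another probe fell by 2.41 (SE 0.18, limma adjusted p = 0.0094) and was also detected on 0 null arrays. A further probe fell by 1.09 (SE 0.27, limma adjusted p = 0.86) and was detected on all 3 null arrays. The remaining Smchd1 probes were detected on 0 arrays. Each array had 15309 to 16447 detected probes. Smchd1 null replicate 3 stood apart, with correlations to the other arrays of 0.946 to 0.956 where other pairs reached 0.994. Of 14 B lineage markers 9 were tested and 0 called, and these 9, Vpreb1 among them, were detected on all arrays. Of those not tested, Pax5 was detected on 1 null and 0 wildtype arrays, Rag2 on 1 array of each group and Dntt on 0. The summed linear level of the list was 19435 to 21646 in wildtype and 19937, 23358 and 54171 in null. All 10 tested hepatocyte markers were lower on each null array than on each wildtype array, where the groups did not overlap for 9.61% of all tested probes. Their median log2 difference was -2.92, and 4 of them passed the threshold. Each was detected on all 3 wildtype arrays and on 0 to 2 null arrays, so each passed the detection filter through the wildtype arrays. The summed level of the list was 2416 to 3884 in wildtype and 321 to 969 in null, while the probe for Alb was detected on 0 arrays. The sums of all these lists also count genes without a tested probe, so part of each sum is background signal. Of the myeloid markers 0 of 9 tested were called, but all 9 differences were negative, with a median of -1.64. The limma p without adjustment was under 0.05 for 5 of 9 (55.6%), beside 4.04% of all tested probes, while the groups overlapped for all 9. The summed level of the myeloid list was 5011 to 13586 in wildtype and 1832, 2275 and 12482 in null. That of the erythroid markers, 0 of 7 called, was 23279 to 38961 in wildtype and 15444 to 56489 in null. Of the T and NK markers 3 of 9 were tested and 0 called, with summed levels of 515 to 692 in wildtype and 324 to 784 in null. These sums include 6 markers that were detected on 0 arrays. The part of these cell type differences in the histone values was not tested, and fewer cells of a type and less RNA per cell cannot be told apart in such samples.

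The question put to these genes was whether their levels differ without Smchd1. At an adjusted p under 0.05 with limma, 0 of 73 histone probes were called, beside 9 of 15878 tested probes (0.0567%). The smallest adjusted p among them was 0.934. Without Smchd1 null replicate 3, which stood apart, 41 probes in all were called, 0 of them histone probes. Without adjustment 2 probes, Hist1h2bg and Hist1h2bc, had a p under 0.05, which is 2.74% of the histone probes beside 4.04% of all. For 4 probes (5.48%) the null and wildtype arrays did not overlap, beside 9.61% of all. These were Hist1h2af, Hist2h2aa2 and Hist1h4a, higher on each null array, and Hist1h2bc, lower on each. Over 73 probes these shares rest on few probes and do not set the histone genes apart from all tested probes.

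The differences were small and fairly well bounded. The log2 differences (null minus wildtype) ran from -0.45 to 0.97, with a median absolute size of 0.09 beside 0.15 for all tested probes. Their median standard error was 0.17, beside 0.19. The 95% interval of the difference lay within 1 log2 unit of 0 on both sides for 70 of 73 probes (95.9%, beside 86.1% of all), and within 0.5 for 46 (63.0%, beside 28.3%). These 46 include all 12 H2A probes that were in the brightest 0.5% on every array. Whether the scanner's range narrows their differences was not tested. For the 3 probes outside the wider bound, Hist1h2bg, Hist1h2ac and 1 probe of Hist2h2aa1, differences of over 1 log2 unit lie within the interval. A probe that misses the threshold is not thereby shown to be equal in both groups.

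**Figure D2:**
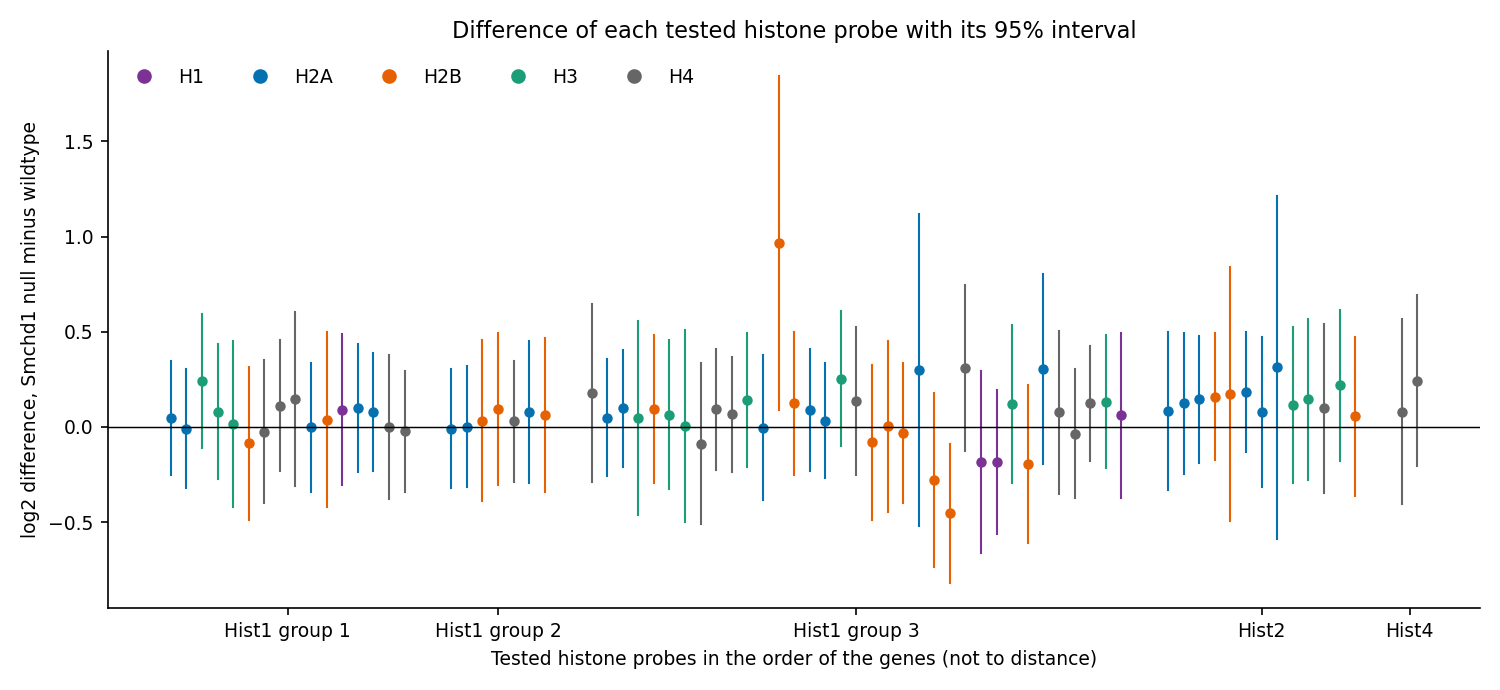
Log2 difference of each of the 73 tested histone probes (y axis, points, Smchd1 null minus wildtype) with its 95% interval (lines), in the order of the genes within the 3 runs of Hist1, Hist2 and Hist4 (x axis), coloured by class. Most points lie close to 0, Hist1h2bg stands at 0.97 and the brighter probe of Hist1h2bc at -0.45.

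More probes had a positive than a negative difference, by a small amount. The difference was positive for 57 of 73 histone probes (78.1%, beside 46.5% of all), with a median of 0.08 beside -0.02 for all tested probes. With median scaling in place of quantile normalization the median of all probes moved to -0.18 and the signs turned, so that 16 of 73 were positive, but 57 of 73 stayed above the median of all probes and the histone median lay 0.09 above it, compared with 0.10 above it with quantile normalization. Per array, the median deviation of the histone probes from each probe's wildtype mean was -0.02, 0.00 and 0.01 on wildtype arrays 1, 2 and 3. On null arrays 1, 2 and 3 it was 0.12, -0.01 and 0.10. Null replicates 1 and 3 were thus above every wildtype array, and null replicate 2 lay among them. The median difference was 0.01 without null replicate 1, 0.14 without null replicate 2 and 0.01 with array weights, under which 41 of 73 were positive. The probes share the arrays and their normalization and are not replicates, so no test was made of this median.

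**Figure D3:**
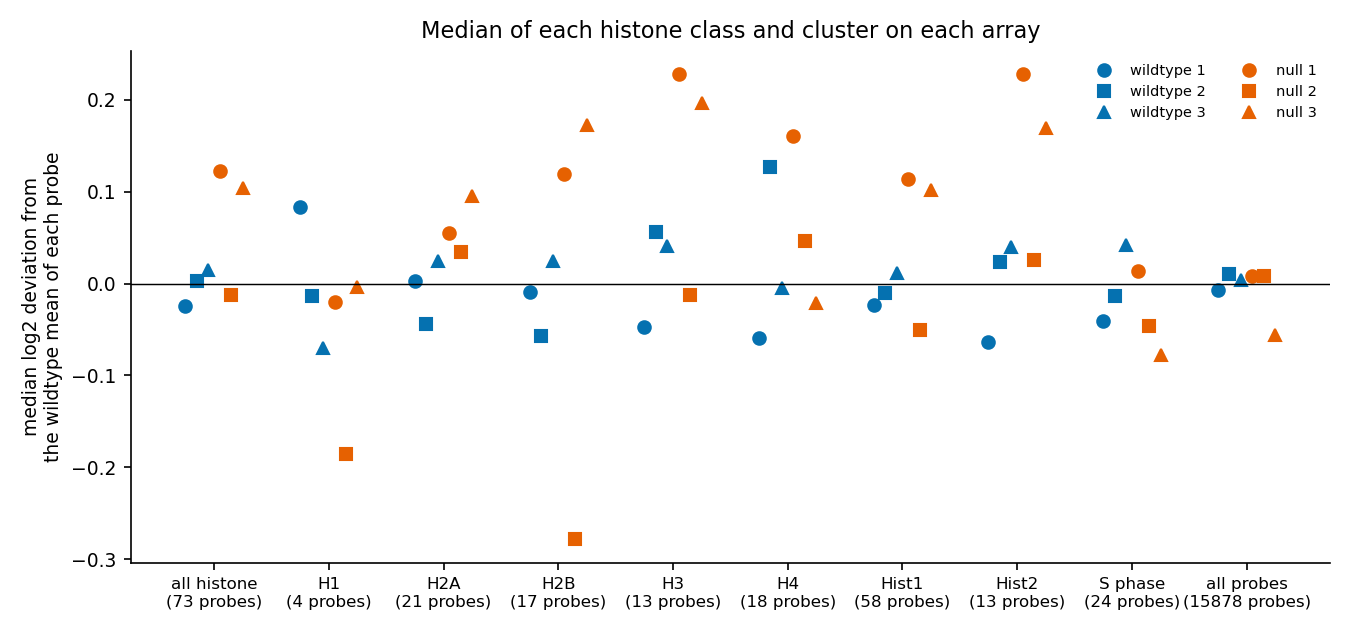
Median log2 deviation from each probe's wildtype mean (y axis) on each of the 6 arrays, for all tested histone probes, each histone class, the Hist1 and Hist2 clusters, the S phase genes and all tested probes (x axis, number of probes in parentheses). Blue marks are wildtype and orange marks null arrays. The H2B median of null replicate 2 lies at -0.28, below the other arrays, while the S phase genes lie within 0.08 of 0 on all arrays.

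Linker histones were read by 4 tested probes of 3 genes, with a median difference of -0.06. Hist1h1c, which encodes the linker histone H1.2, had log2 intensities of 10.27, 10.15 and 10.06 on the wildtype arrays and 9.82, 9.88 and 10.22 on the null arrays. Null replicates 1 and 2 were below all wildtype arrays and null replicate 3 was among them, so the groups overlapped. The difference was -0.19 (SE 0.16, limma adjusted p = 0.934), and that of its second probe was also -0.19 (SE 0.20). The differences of the 2 probes were -0.31 and -0.39 without null replicate 3, -0.11 and -0.04 without null replicate 1, and -0.41 for both with median scaling, where all probes had a median of -0.18. Hist1h1b (H1.5) had a difference of 0.09 (SE 0.17) and Hist1h1a (H1.1) one of 0.06 (SE 0.18).

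H2A genes were read by 21 tested probes, 17 with a positive difference, and their median was 0.08. With median scaling 9 of 21 were positive and all 21 lay above the median of all probes, and the median was 0.05 without null replicate 1 or without null replicate 3. For 12 of these probes, of the 8 genes Hist1h2ad, Hist1h2af, Hist1h2ah, Hist1h2ai, Hist1h2ak, Hist1h2an, Hist1h2ao and Hist2h2ac, the raw intensity was in the brightest 0.5% of the array on all 6 arrays. Hist1h2ai had normalized log2 intensities of 14.82, 14.76 and 14.83 in wildtype and 14.89, 14.81 and 14.85 in null, with raw intensities of 28200 to 30562 where the brightest probe of an array reached 30249 to 34015. The groups overlapped, with a difference of 0.05 (SE 0.13, adjusted p = 0.959). The 12 probes had differences of -0.01 to 0.12 and a median of 0.05. Whether the scanner's range narrows differences at that brightness was not tested, and without these probes the median of all histone probes was still 0.08.

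Among the other H2A probes, Hist2h2aa2 was higher on each null array, at 9.97, 9.83 and 9.86 against 9.60, 9.76 and 9.76 in wildtype, a difference of 0.18 (SE 0.13, adjusted p = 0.934). The dimmer tested probe of Hist2h2aa1 read 6.00, 6.09 and 6.10 in wildtype and 7.09, 6.59 and 5.44 in null. Its null arrays spread on both sides of the wildtype arrays, and the difference was 0.31 (SE 0.38), or -0.05 without null replicate 1 and 0.78 without null replicate 3. The other tested probe of that gene had a difference of 0.08 (SE 0.17). Hist1h2ac spread in the same order, at 5.65, 5.67 and 5.82 in wildtype and 6.81, 5.92 and 5.31 in null, a difference of 0.30 (SE 0.35), or -0.10 without null replicate 1 and 0.65 without null replicate 3. The order null 1, null 2, null 3 from high to low was also that of Hist1h2bg, and it held for 16 of 73 histone probes (21.9%) beside 24.3% of all tested probes. The remaining differences were 0.30 for Hist1h2ab (SE 0.21), 0.14 for the dimmer probe of Hist2h2ac (SE 0.14), 0.08 for both Hist1h2ag (SE 0.16) and Hist2h2ab (SE 0.18), and under 0.01 in size for Hist1h2ae (SE 0.16).

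**Figure D4:**
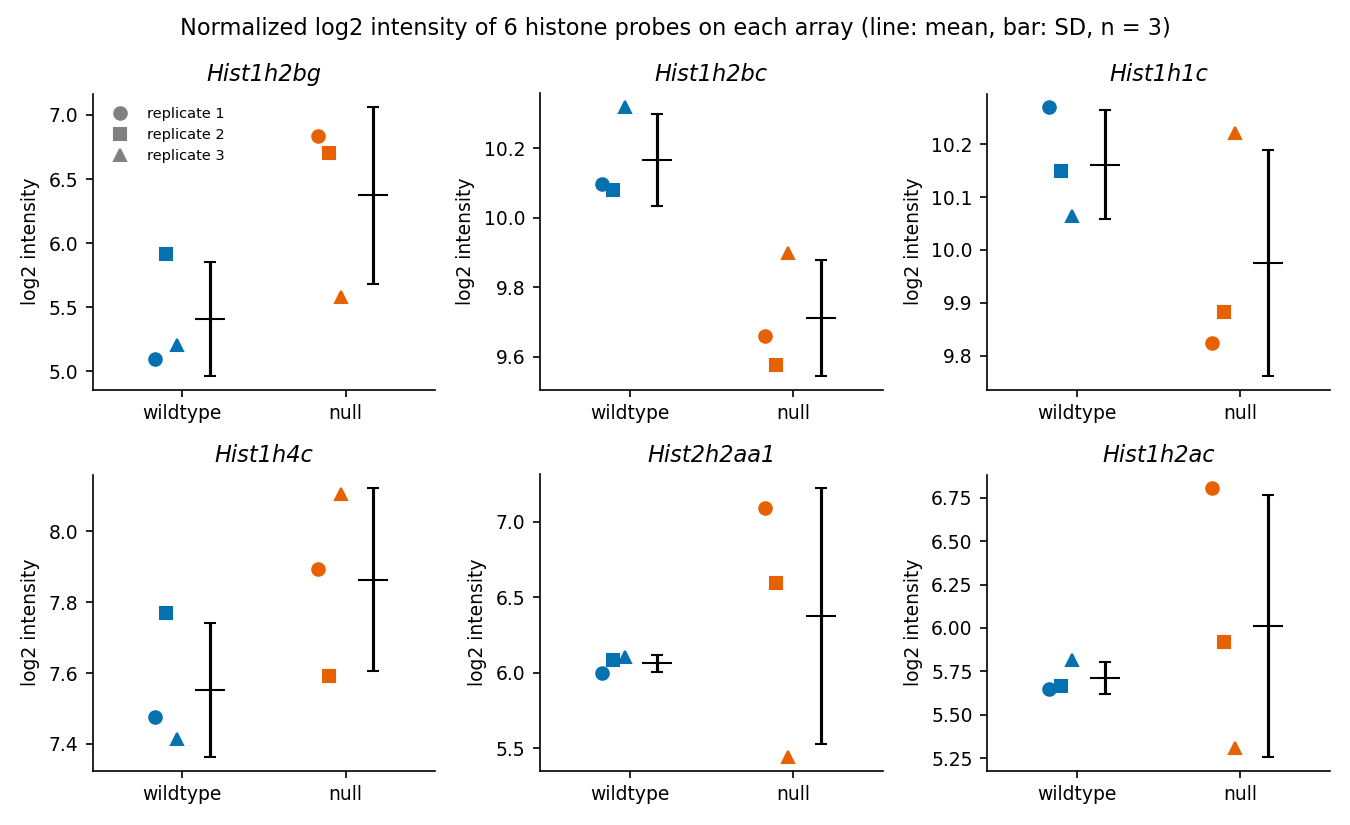
Normalized log2 intensity (y axis, own scale in each panel) of 6 histone probes on the 3 wildtype and 3 null arrays, with the mean (line) and SD (bar, n = 3). The brighter probe of Hist1h2bc is lower on each null array, and in the other 5 panels the groups overlap, with null replicate 3 lowest of the null arrays for Hist1h2bg, Hist2h2aa1 and Hist1h2ac.

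H2B genes were read by 17 tested probes, 11 with a positive difference, and held both probes with an unadjusted p under 0.05. Hist1h2bg had log2 intensities of 5.10, 5.91 and 5.21 in wildtype and 6.84, 6.70 and 5.58 in null. Null replicates 1 and 2 were above all wildtype arrays, and null replicate 3 lay below wildtype replicate 2, so the groups overlapped. The difference was 0.97 (SE 0.37, 95% interval 0.09 to 1.84, limma adjusted p = 0.934). The probe is dim: it was detected on 2 of 3 wildtype and all 3 null arrays, and its raw intensities were 165.1, 227.6 and 174.5 in wildtype and 214.5, 236.2 and 169.9 in null, with standard errors over 30 to 40 beads of 7.1 to 9.7. Without background correction its difference was 0.32. It was 1.36 without null replicate 3 (adjusted p = 0.191) and 1.20 with array weights (adjusted p = 0.147), and it lay between 0.73 and 1.22 when any other array was left out.

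Hist1h2bc, the gene with the lowest difference of the histone probes, read 10.10, 10.08 and 10.32 in wildtype and 9.66, 9.58 and 9.90 in null with its brighter probe. Each null array lay below each wildtype array, and the difference was -0.45 (SE 0.15, 95% interval -0.82 to -0.09, adjusted p = 0.934). Leaving out each array in turn gave -0.55 to -0.38. The dimmer probe of the same gene read 5.64, 5.36 and 5.54 in wildtype and 5.10, 5.60 and 5.002 in null, where it was detected on 1 array, and the groups overlapped at a difference of -0.28 (SE 0.20). Hist1h2bb had the next lowest difference, -0.19 (SE 0.18), with 7.04, 7.04 and 6.94 in wildtype and 7.09, 6.52 and 6.83 in null. Hist1h2bf had 11.09, 11.08 and 11.23 in wildtype and 11.28, 11.03 and 11.45 in null, a difference of 0.12 (SE 0.16).

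The H2B probes shared a pattern over single arrays. Null replicate 2 was the lowest of the 6 arrays for 12 of 17 H2B probes (70.6%), compared with 26.0% of all histone probes and 14.03% of all tested probes, and null replicate 3 was the highest for 9 of 17 (52.9%), compared with 37.0% and 28.3%. The H2B median deviation was 0.12, -0.28 and 0.17 on null replicates 1, 2 and 3 and -0.06 to 0.02 on the wildtype arrays, so that the null arrays lay on both sides. With array weights, which gave null replicate 3 the lowest weight at 0.165, 2 of 17 H2B probes were positive and 2 lay above the median of all probes. With median scaling 2 of 17 were also positive, but 9 of 17 lay above the median of all probes. The H2B median of 0.04 was 0.20 without null replicate 2 and -0.08 without null replicate 3. The differences of the other H2B probes were 0.17 and 0.16 for Hist2h2be, 0.10 for Hist1h2bh, 0.09 and 0.03 for Hist1h2bk, 0.06 for Hist1h2bj, 0.05 for Hist2h2bb, 0.04 for Hist1h2bn and -0.08 for Hist1h2bm. The 3 tested probes of Hist1h2be had -0.08, -0.03 and 0.00. Their standard errors were 0.14 to 0.20, apart from the dimmer Hist2h2be probe at 0.28.

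H3 genes were read by 13 tested probes of 9 genes, and all 13 differences were positive, with a median of 0.12. With median scaling 3 of 13 were positive but all 13 lay above the median of all probes, and with array weights 9 of 13 were positive. Hist2h3b read 12.38, 12.29 and 12.36 in wildtype and 12.46, 12.37 and 12.86 in null. Null replicates 1 and 3 were above all wildtype arrays and null replicate 2 lay among them, with a difference of 0.22 (SE 0.17, adjusted p = 0.934). Hist1h3d had 0.25 (SE 0.15), and the 3 probes of Hist1h3h had 0.24 (SE 0.15), 0.08 (SE 0.15) and 0.02 (SE 0.19). The other differences were 0.15 and 0.11 for Hist2h3c1, 0.14 for Hist1h3e, 0.13 for Hist1h3a, 0.12 for Hist1h3c, 0.05 for Hist1h3g, and 0.06 and 0.01 for Hist1h3f.

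H4 genes were read by 18 tested probes of 12 genes, 14 of them with a positive difference and a median of 0.09. With median scaling 2 of 18 were positive and the median was -0.10, with 12 above the median of all probes, and without null replicate 1 the median was 0.01. Hist1h4a was higher on each null array, at 12.11, 12.04 and 12.08 against 11.92, 12.04 and 11.90 in wildtype, a difference of 0.12 (SE 0.13, adjusted p = 0.934). The gap between the groups is under 0.01 log2 units at wildtype replicate 2. Hist1h4c had 7.48, 7.77 and 7.41 in wildtype and 7.89, 7.59 and 8.11 in null. Null replicate 2 lay among the wildtype arrays, and the difference was 0.31 (SE 0.19, adjusted p = 0.934). It was 0.19 without null replicate 3, 0.45 without null replicate 2, 0.13 with median scaling and 0.12 with array weights. The others ran from -0.09 for 1 probe of Hist1h4f (SE 0.18) to 0.24 for 1 probe of Hist4h4 (SE 0.19). Between them were 0.18 for Hist1h4h, 0.15 and 0.11 for Hist1h4k, 0.14 for Hist1h4d, 0.10 for Hist2h4, 0.09 and 0.07 for the other Hist1h4f probes, 0.08 and -0.04 for Hist1h4b, 0.08 for the other Hist4h4 probe, 0.03 for Hist1h4i, -0.03 for Hist1h4j, and 0.00 and -0.02 for Hist1h4m.

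By position, the median difference was 0.06 over 58 probes of Hist1 and 0.14 over 13 probes of Hist2, where all 13 were positive. With median scaling 4 of these 13 were positive and all 13 lay above the median of all probes, and 9 of 13 were positive both with array weights and without null replicate 3. Within Hist1 the 3 runs of neighbours had medians of 0.04, 0.03 and 0.07 over 16, 7 and 35 probes. The third run held both Hist1h2bg and Hist1h2bc and both other Hist1 probes whose groups did not overlap. Of the head-to-head partners printed above, Hist1h2bg had 0.97 (SE 0.37) and Hist1h2ae a difference under 0.01 in size (SE 0.16), neither of them called, and whether the partners differ was not tested. Hist1h2ah and Hist1h2bk had 0.00 and 0.09 with the brighter probe of each, and Hist1h2bf and Hist1h2ad had 0.12 and 0.03. The 13 tested probes of H2A and H2B genes with the octamer in every window had differences of -0.19 to 0.97 with a median of 0.05 (9 positive). The 21 of the other H2A and H2B genes with a window had -0.08 to 0.31 with a median of 0.08 (17 positive). These 21 include the probes of Hist1h2be, which has a window with the octamer and another without it.

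Different probes of a gene gave close values, but the differences of all histone probes were small, with a median absolute size of 0.09. The closeness therefore says little about agreement between the probes of a gene. Of the 19 genes with at least 2 tested probes, the median range between a gene's probes was 0.06 log2 units, and for 6 genes the probes differed in sign. The widest ranges were 0.23, for Hist2h2aa1 and Hist1h3h. With the brightest tested probe of each of the 51 genes the median difference was 0.09, with 42 positive.

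Genes that act on histone mRNA and histone protein were also without a call. Of 10 tested factors of histone mRNA processing and transcription, 0 passed, 3 had a positive and 7 a negative difference, and the median was -0.06. Their median deviation from the wildtype mean was -0.03, 0.04 and -0.20 on null replicates 1, 2 and 3, and -0.04 to 0.07 on the wildtype arrays. Only null replicate 3, which stood apart, was thus below the wildtype arrays. Cpsf3, the endonuclease that cuts the histone pre-mRNA, read 6.60, 6.79 and 6.58 in wildtype and 6.01, 6.54 and 5.56 in null, a difference of -0.62 (SE 0.25, adjusted p = 0.934) with groups that did not overlap. Pou2f1, which encodes the octamer factor Oct1, had -0.39 (SE 0.18) with no overlap, and Cpsf2, a partner of Cpsf3, had -0.19 (SE 0.15). The groups did not overlap for 2 of the 10 factors (20%), beside 9.61% of all tested probes. Slbp and Casp8ap2 had no tested probe, and Npat, the histone gene coactivator, had -0.03 (SE 0.22).

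Of 14 tested histone chaperones and assembly factors, 0 passed, 2 were positive and 12 negative, with a median of -0.12, where 46.5% of all tested probes were positive. Their median deviation from the wildtype mean was 0.03, -0.11 and -0.23 on null replicates 1, 2 and 3, and -0.01 to 0.03 on the wildtype arrays. Null replicate 1 was thus not lower, and null replicate 3, which stood apart, was lowest. Rbbp4 and Rbbp7, histone-binding subunits of assembly complexes, had -0.31 (SE 0.21) and -0.29 (SE 0.19), and Mcm2, a helicase subunit that also holds H3 and H4, had -0.18 (SE 0.13). Of 9 tested replication-independent histone variants, 0 passed, 7 were positive and 2 negative, with a median of 0.05. Their median deviation from the wildtype mean was -0.07, -0.17 and 0.51 on null replicates 1, 2 and 3, and -0.03 to 0.04 on the wildtype arrays. Only null replicate 3, which stood apart, was thus above the wildtype arrays. H2afj had -0.47 (SE 0.27), H2afy (macroH2A1) 0.25 (SE 0.22) and H3f3b (H3.3) 0.16 (SE 0.21). Of 24 tested S phase genes, 0 passed, 9 were positive and 15 negative, with a median of -0.06, and the 95% interval lay within 1 log2 unit of 0 for all 24. Tk1 (thymidine kinase) had 0.36 (SE 0.24) and Ccne2 (cyclin E2) had -0.38 (SE 0.26). The groups did not overlap for 2 of the 14 chaperones and assembly factors (14.3%), Mcm2 among them, and for 0 of the 9 variants. They did not overlap for 3 of the 24 S phase genes (12.5%), Mcm2 and Tk1 among them, beside 9.61% of all tested probes. In the 4 lists together the smallest adjusted p was 0.934, and 1 gene, Cpsf3, had an unadjusted p under 0.05.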

How the data were processed

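Total RNA of 6 pre-B cell samples was labelled as biotinylated cRNA and read on bead arrays. The intensity deposited for a probe is the mean over its beads, not normalized, exported by GenomeStudio 1.8.0, per the file headers, and BeadStudio, limma 3.12.1 and R 2.15.1 stand in the submitters' processing notes. The deposited bead signal columns hold the SD and the number of beads, per the file headers. The detection p-value is deposited in one table and, as the fraction 1 minus that p-value, in another. The authors' deposited log2 values come from normexp background correction on control probes and quantile normalization, per the deposited description, and equal those computed here.

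Here the deposited intensities of 45281 probes were background corrected with 936 negative controls, then quantile normalized and log2 transformed (neqc, offset 16, limma 3.58.1, R 4.3.3). Probes with a detection p under 0.05 on at least 3 of 6 arrays, 15878 in all, were tested by limma (lmFit and eBayes), 3 null against 3 wildtype arrays, two-sided, with Benjamini-Hochberg adjustment over all of them at 0.05. Array number limits the precision. The fit was tested on simulated data. The members and the gene lists were chosen with earlier results of these data known. Every tested histone probe is named, and those with the 3 largest differences in each direction or the highest mean level of a class are given by array. In each related list the 3 genes with the smallest p are named, apart from 1 that is not reported here, and a gene is represented by its tested probe with the highest mean level. Hist1h1c, Hist1h2ac and the motif examples were chosen after their values were seen. Promoters are from RefSeq, assembly GRCm38.p6. The array tables name no genome build, so RefSeq served only for names, chromosomes, neighbours and these sequences. Alternatives were other background corrections, offsets, scalings, filters and moderation, array weights, the replicate block and the omission of each array.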

Additional observations from a re-analysis of the deposited data

How the results depend on the processing

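Under the fit reported and each of 15 alternatives that refit single probes, 0 histone probes were called. Of these alternatives, the authors' deposited log2 values equal those of the reported fit. With the replicate number as a replicate block the smallest limma adjusted p was 0.942. The median difference was 0.08 there as well, which was fixed in advance, because each number occurs once in each group. Same-numbered arrays shared little deviation from their group means (correlations of 0.02, 0.04 and -0.01). Wildtype replicates 1 and 2 deviated most like the null array of the same number, and wildtype replicate 3 most like null replicate 1. The labels do not say whether the numbers pair the samples, and correlations this low cannot show that they do not. All probes called were 9 in the reported fit, 3 without background correction, 56 with median scaling, 52 with array weights, 2 with the replicate block, 2 where detection was required at 0.01 on every array, 6 without a detection filter, and 2 to 41 when 1 array was left out. The median difference of the histone probes was -0.0899 with median scaling, where that of all probes was -0.18, 0.00819 with array weights, and 0.0135 (without null replicate 1) to 0.137 (without null replicate 2) when 1 array was left out. The single probes that moved by more than the replicate SD were 34 with median scaling, 2 with array weights and 1, Hist1h2bg, without background correction. The median without the very bright probes is an alternative chosen after seeing the data. The planned omission of near-identical probes was not run, because probe sequences were not used here. Signal close to background limits the dim probes Hist1h2bg, Hist1h2ac and Hist2h2aa1.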
